A study of Mus musculus with 4 samples.

Results

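The high mobility group genes were followed in *Terc*-/- mouse embryonic stem cells (mESCs) before and after the cells had come to maintain their telomeres without telomerase. The 9 genes were chosen by name: *Hmgn1*, *Hmgn2*, *Hmgn3* and *Hmgn5* of the HMGN subfamily, *Hmga1* and *Hmga2* of the HMGA subfamily, and *Hmgb1*, *Hmgb2* and *Hmgb3* of the HMGB subfamily. Each symbol matched exactly 1 of the 53379 genes in the files. The cells were DKO741, a line made from E14 mESCs by targeting both *Terc* alleles, so that the RNA template of telomerase is missing in every group. PD100 cells had undergone 100 population doublings and are described as pre-ALT, where ALT is telomere maintenance by recombination, and PD800 cells had undergone 800 and are described as post-ALT survivors. Bulk RNA was sequenced from 2 libraries of each group, stated to be biological duplicates, grown without feeder cells. Both groups come from 1 knock-out line, no *Terc*+/+ library is part of the comparison, and the effects of culture time and of ALT cannot be told apart. The labels speak of 100 and 800 both as doublings and as passages.

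High mobility group proteins are abundant non-histone proteins of chromatin that bend, loosen or bridge nucleosomal DNA. HMGN proteins bind the nucleosome core and compete with linker histone H1, HMGA proteins bind the minor groove of AT-rich DNA through AT hooks, and HMGB proteins bend DNA with their HMG boxes. HMGA proteins and HMGB2 are typical of embryonic and proliferating cells, and HMGB1 can also leave the cell and act as a danger signal. The study followed HMGN1 as a candidate factor of ALT, and the question here is which paralogs moved with it at the RNA level.

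The 4 HMGN genes share the start of the nucleosomal binding domain, the stretch that holds HMGN proteins on the nucleosome core. The in-frame coding window of 30 bases in which the other 3 genes were most alike to *Hmgn1* is shown to let a reader see how far the paralogs have parted at the DNA level. Capitals mark the 16 bases that all 4 genes share. *Hmgn2* and *Hmgn3* each had the base of *Hmgn1* at 21 of the 30 positions and *Hmgn5* at 20. The sequences are from GENCODE M21 transcripts, 5′ to 3′.
Hmgn1: GAGCCcaagcGccGcTCcGCgaGgcTGTCg
Hmgn2: GAGCCacagaGaaGaTCtGCgaGgtTGTCt
Hmgn3: GAGCCcacaaGacGgTCgGCcaGgtTGTCc
Hmgn5: GAGCCaaagaGaaGaTCaGCccGacTGTCt

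The total expected count, RSEM's estimate of fragments per gene summed over genes, was between 32454121 and 38492149 per library. A count of 3 corresponded to between 0.0743 and 0.0934 CPM (counts scaled to a common library total by TMM factors), a floor that covers counting error only. *Terc* had an expected count of 1, 0, 0 and 0 in PD100 replicates 1 and 2 and PD800 replicates 1 and 2. Of the 10 embryonic stem cell markers, 6 were higher in PD800 and none was lower, where 13.1% and 15.4% of all tested genes were, and their summed level was 2220 and 2512 CPM in PD100 against 4247 and 4325 CPM in PD800. *Pou5f1*, which defines these cells, was at 467, 503, 601 and 635 CPM in the same order of libraries. All 10 primitive endoderm markers were lower in PD800, with summed levels of 2825 and 3149 CPM in PD100 against 308 and 319 CPM. *Sox17* was at 17.6 and 17.4 CPM in PD100 and at 0.250 and 0.280 CPM in PD800. Of the 9 fibroblast (feeder) markers tested, 1 was higher (*Vim*) and 4 were lower. The sum was 469 to 502 CPM in PD800 and 555 to 573 CPM in PD100, but *Fn1* and *Vim* made up most of it. *Fn1* was at 349 and 333 CPM in PD100 and at 273 and 225 CPM in PD800, and *Vim* at 156 and 168 against 215 and 228 CPM. The sum thus says little of the other markers. *Lum* was at 0 in 3 of the 4 libraries, and *Col1a1* was at 13.0 and 24.4 CPM in PD100 against 1.95 and 2.52 CPM in PD800. The part of these marker changes in the results below was not tested, and in bulk RNA fewer cells of a type and less RNA per cell cannot be told apart.

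All 9 genes passed the filter on low counts. Between PD100 and PD800, *Hmgn1*, *Hmgn2* and *Hmgb1* rose, *Hmgn5* and *Hmga2* fell, and 4 genes did not pass the test (*Hmgn3*, *Hmga1*, *Hmgb2* and *Hmgb3*). The test was edgeR's quasi-likelihood test over 19148 genes, and a gene passed at a Benjamini-Hochberg adjusted p under 0.01. Thus 3 of 9 were higher, where 13.1% of all tested genes were, and 2 of 9 were lower, where 15.4% were. In either direction 5 of 9 passed, beside 28.5% of all tested genes. With a fold change over 2 as a further condition, 1 gene was higher (*Hmgn1*) and 2 were lower (*Hmgn5* and *Hmga2*), against 6.28% and 8.81% of all tested genes. At an adjusted p under 0.01, 5 were higher without PD100 replicate 2 and 4 were lower without PD100 replicate 1, while without either PD800 library 1 was higher and 1 lower. The median log2 fold change of the 9 genes was 0.32, beside 0.01 for all tested genes. The CPM values of the groups did not overlap for 8 of the 9 genes, which also held for 73.8% of all tested genes. With 2 libraries a group, an exact permutation test of a single value cannot go below p = 0.333.

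**Figure D1:**
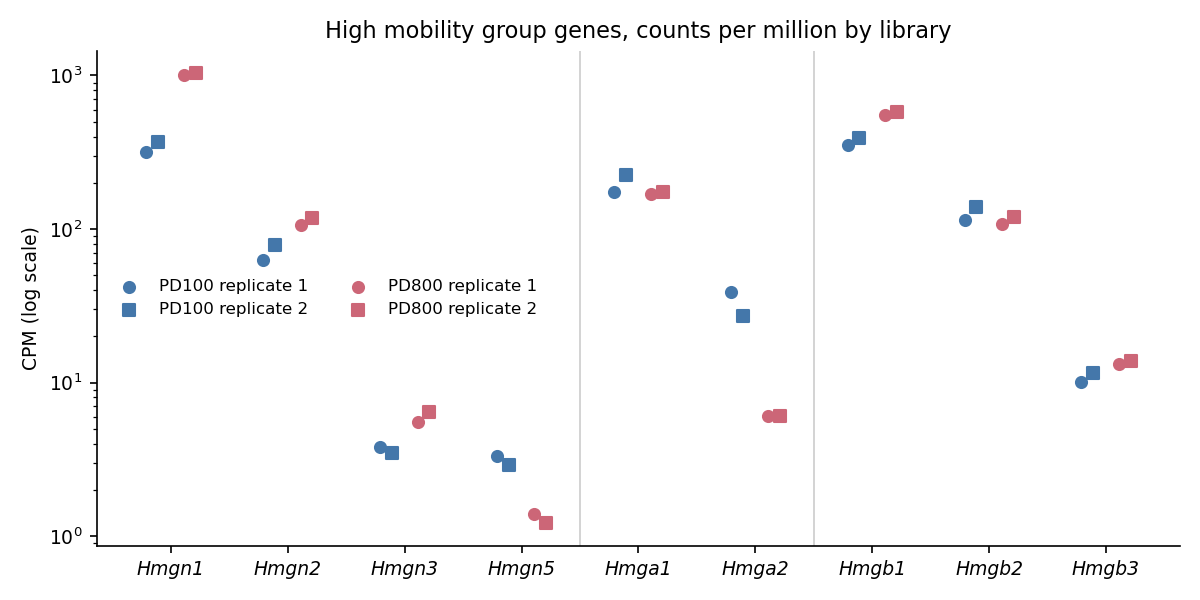
CPM of the 9 genes on a log scale, with 1 point per library, PD100 in blue and PD800 in red, circles for replicate 1 and squares for replicate 2. Hmgn1 is at 317 and 367 CPM in PD100 and at 1005 and 1034 CPM in PD800, Hmga2 drops from 39.1 and 26.9 to 6.04 CPM, and the groups of Hmgb2 overlap.

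Of the HMGN genes, which loosen chromatin on the nucleosome core, *Hmgn1* changed most. *Hmgn1* (chromosome 16, 96120618 to 96127729, minus strand, mm10) stood at 317 and 367 CPM in PD100 and reached 1005 and 1034 CPM in PD800. Both PD800 libraries lay far above both PD100 libraries, with means of 342 ± 35.1 and 1020 ± 20.7 CPM (SD, n = 2). The ratio of the means was 2.98, and the log2 fold change was 1.58 ± 0.10 (SE), with an edgeR adjusted p of 0.000161. This change passed the test in every refit that left out 1 library, with estimates from 1.48 to 1.66.

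*Hmgn2*, the closest abundant relative of *Hmgn1*, rose less. *Hmgn2* (chromosome 4, 133964738 to 133968650, minus strand) was at 62.8 and 79.0 CPM in PD100 and at 107 and 117 CPM in PD800. The groups were apart, but the PD100 libraries differed from each other by more than the PD800 libraries did. The log2 fold change was 0.66 ± 0.12, with an edgeR adjusted p of 0.00724. It did not pass without PD800 replicate 1 (0.73, edgeR adjusted p = 0.0183) or without PD800 replicate 2 (0.60, edgeR adjusted p = 0.0372), nor when the counts of its look-alike genes were added (0.65 ± 0.15, edgeR adjusted p = 0.0156). In limma on log2(TPM + 1) it was 0.34, with an adjusted p of 0.0908.

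*Hmgn3*, best known from the eye, brain and pancreas, was a low-level gene here. *Hmgn3* (chromosome 9, 83109948 to 83146685, minus strand) was at 3.79 and 3.48 CPM in PD100 and at 5.51 and 6.41 CPM in PD800. The groups did not overlap, but the log2 fold change of 0.71 ± 0.15 had an edgeR adjusted p of 0.0113 and so missed the threshold. It passed when PD100 replicate 1 (0.78, edgeR adjusted p = 0.00215) or PD100 replicate 2 (0.63, edgeR adjusted p = 0.00620) was left out. It did not pass without PD800 replicate 1 (0.82, edgeR adjusted p = 0.0329) or PD800 replicate 2 (0.61, edgeR adjusted p = 0.0962), and limma on log2(TPM + 1) gave 0.30, with an adjusted p of 0.151. It passed in the edgeR fits over protein-coding nuclear genes (0.73, edgeR adjusted p = 0.00494) and with no filter on low counts (0.71, edgeR adjusted p = 0.000531).

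*Hmgn5*, the long HMGN protein with an acidic tail that can also unfold chromatin by itself, went the other way. *Hmgn5* (chromosome X, 109004534 to 109013404, minus strand) was at 3.34 and 2.91 CPM in PD100 and at 1.39 and 1.21 CPM in PD800. These levels rest on expected counts of 135 and 97.0 in PD100 and of 49.9 and 39.0 in PD800, and both PD800 libraries were lower. The log2 fold change was -1.26 ± 0.20, with an edgeR adjusted p of 0.00412. It did not pass without PD800 replicate 1 (-1.36, edgeR adjusted p = 0.0152) or PD800 replicate 2 (-1.16, edgeR adjusted p = 0.0249), and in limma on log2(TPM + 0.1) it was -1.33, with an adjusted p of 0.0101. The coding sequence of *Hmgn5* is 1221 bases long, against 291 for *Hmgn1*, 273 for *Hmgn2* and 300 for *Hmgn3*.

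Of the HMGA genes, the fetal regulator *Hmga2* fell and *Hmga1* did not pass the test. *Hmga2* (chromosome 10, 120361275 to 120476469, minus strand) was at 39.1 and 26.9 CPM in PD100 and at 6.04 CPM in both PD800 libraries. The PD100 libraries were unlike each other (expected counts of 1577 and 899), yet both stood far above the PD800 libraries. The mean in PD100 was 5.47 times that in PD800, and the log2 fold change was -2.45 ± 0.19, with an edgeR adjusted p of 0.000298. It passed in every refit without 1 library, with estimates from -2.72 to -2.15. The antisense genes *1700006J14Rik* and *9230105E05Rik* overlap *Hmga2* and had expected counts of 34.0, 20, 12 and 4 and of 23, 11, 5 and 5 in the 4 libraries. The sources used here do not state whether the counting used strand, and without strand reads from overlapping genes cannot be told apart.

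*Hmga1* (chromosome 17, 27556497 to 27563674, plus strand), the HMGA gene most expressed in stem cells, was at 175 and 225 CPM in PD100 and at 169 and 174 CPM in PD800. PD100 replicate 1 lay next to the PD800 libraries and PD100 replicate 2 stood above them. The log2 fold change was -0.22 ± 0.13, with an edgeR adjusted p of 0.198. Without PD100 replicate 1 it was -0.39 and passed (edgeR adjusted p = 0.000545), so that this value rested on a single library. It overlaps the protein-coding gene *AI413582* on the other strand, which had expected counts between 108 and 161.

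Of the HMGB genes, which bend DNA, *Hmgb1* rose. *Hmgb1* (chromosome 5, 149046702 to 149184489, minus strand) was at 352 and 392 CPM in PD100 and at 550 and 579 CPM in PD800. The groups were well apart, the ratio of the means was 1.52, and the log2 fold change was 0.60 ± 0.09, with an edgeR adjusted p of 0.00319. It did not pass without PD800 replicate 1 (0.65, edgeR adjusted p = 0.0308) or PD800 replicate 2 (0.57, edgeR adjusted p = 0.0456), and in limma on log2(TPM + 1) it was 0.33, with an adjusted p of 0.0473. The gene *Uspl1* overlaps it on the other strand and had expected counts of 4282 and 3823 in PD100 and of 3821 and 3629 in PD800.

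*Hmgb2* (chromosome 8, 57511907 to 57515999, plus strand), the proliferation-associated HMGB gene, was at 114 and 140 CPM in PD100 and at 108 and 119 CPM in PD800, and the groups overlapped. The log2 fold change was -0.16 ± 0.12, with an edgeR adjusted p of 0.309. Without PD100 replicate 1 it was -0.30 and passed (edgeR adjusted p = 0.00653).

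*Hmgb3* (chromosome X, 71555918 to 71560676, plus strand), known from hematopoietic progenitors, was at 10.1 and 11.5 CPM in PD100 and at 13.2 and 13.7 CPM in PD800. The log2 fold change of 0.32 ± 0.10 had an edgeR adjusted p of 0.0475 and missed the threshold. Without PD100 replicate 2 it was 0.39 and passed (edgeR adjusted p = 0.00795). Its adjusted p was 0.164 with DESeq2, and limma on log2(TPM + 1) gave 0.02, with an adjusted p of 0.894.

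TPM values are scaled for gene length and so allow the levels of paralogs to be set side by side. The summed TPM of the 4 HMGN genes was 186 and 200.4 in PD100 and 413 and 406 in PD800, a ratio of the means of 2.12. That of the 2 HMGA genes was 118 and 139 in PD100 and 92.7 and 89.1 in PD800, and that of the 3 HMGB genes was 317 and 313 in PD100 and 365 and 362 in PD800. Ordered by mean TPM among the 19148 tested genes, *Hmgn1* moved from rank 483 in PD100 to rank 225 in PD800. *Hmgb1*, the most abundant of the 9 genes in PD100, moved from rank 300 to rank 242, and *Hmga2* moved from rank 6717 to rank 11773. In PD100 the order by TPM was *Hmgb1* (236 and 248), *Hmgn1* (130 and 134), *Hmga1* (110 and 134), *Hmgb2* (75.1 and 58.1) and *Hmgn2* (50.2 and 61.9). *Hmgn1* and *Hmga1* overlapped there, as did *Hmgb2* and *Hmgn2*. In PD800 *Hmgn1* (338 and 329) stood above *Hmgb1* (304 and 307) in both libraries, and *Hmga1* (91.6 and 88.0), *Hmgn2* (69.8 and 71.8) and *Hmgb2* (54.6 and 49.3) followed without overlap. The order turns when the TPM of near-identical copies is added, since *Hmgb1* with its copies was then at 524 and 543 TPM in PD800 and *Hmgn1* with its copies at 351 and 345 TPM. In PD100, *Hmga1* with its copy (223 and 197 TPM) stood above *Hmgn1* with its copies (136 and 141 TPM) in both libraries. The 4 lowest genes held at most 8.60 TPM in any library, and *Hmgb3*, with 5.83 and 6.26 TPM in PD100 and 6.29 and 6.0 TPM in PD800, overlapped between the groups on this scale.

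Within the HMGN subfamily, *Hmgn1* held 70.1% and 67.0% of the TPM in PD100 and 81.9% and 81.0% in PD800. *Hmgn2* held 27.0% and 30.9% in PD100 and 16.9% and 17.7% in PD800, although its own CPM level rose. These levels depend on how reads are divided with near-identical copies. With the copies' TPM added to each gene, *Hmgn1* held 51.5% and 41.9% in PD100 and 63.6% and 62.0% in PD800, and *Hmgn2* held 46.4% and 56.9% against 35.5% and 37.1%. Short copies weigh more in TPM than in counts. *Hmga2* went from 7.26% and 3.84% of the HMGA sum to 1.19% and 1.17%, or from 3.75% and 2.63% to 0.698% and 0.693% with copies added. *Hmgb1* held 74.4% and 79.4% of the HMGB sum in PD100 and 83.3% and 84.7% in PD800, and *Hmgb2* held 23.7% and 18.6% against 14.97% and 13.6%.

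**Figure D2:**
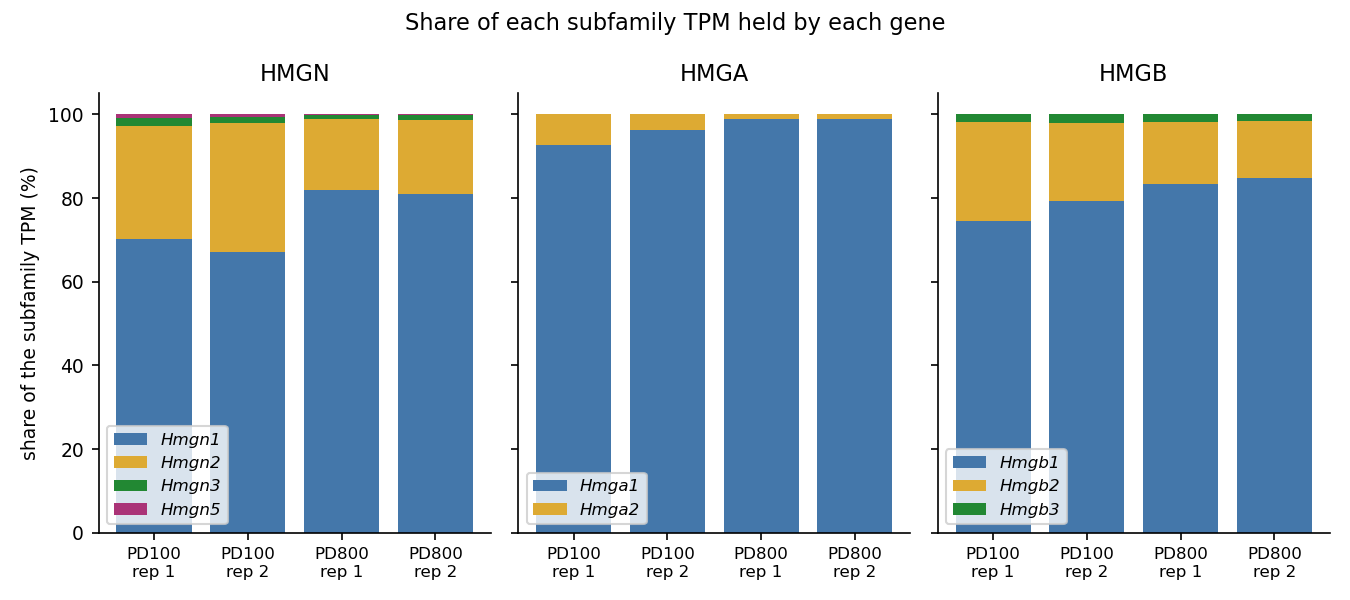
Share of the summed TPM of each subfamily held by each gene, in percent, as stacked bars for the 4 libraries (PD100 replicates 1 and 2, PD800 replicates 1 and 2), in 1 panel each for HMGN, HMGA and HMGB. Hmgn1 grows to over 81% of the HMGN sum in PD800, Hmga2 shrinks to 1.19% and 1.17% of the HMGA sum, and Hmgb1 reaches 83.3% and 84.7% of the HMGB sum.

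Ratios between paralogs put these shares on a log2 scale. Of the 10 pairs within a subfamily, 9 had ratios that did not overlap between PD100 and PD800, each with the smallest exact two-sided permutation p this design allows (0.333), and no adjusted value over the pairs can be lower. Single genes did not overlap in 73.8% of cases in CPM, and no such share was computed for pairs, so the count is a description only. The TPM ratio of *Hmgn1* to *Hmgn2* was 2.60 and 2.17 in PD100 and 4.84 and 4.58 in PD800, so that its log2 differed by 0.99. With look-alike genes added it was 1.11 and 0.737 in PD100 and 1.79 and 1.67 in PD800, and the value below 1 in PD100 replicate 2 rests on *Gm10182*, a copy of 273 bases that had 113 TPM there from an expected count of 680. In summed expected counts *Hmgn1* stood above *Hmgn2* in that library, with 12291 against 3735. The ratio of *Hmga1* to *Hmga2* was 12.8 and 25.0 in PD100 and 83.2 and 84.6 in PD800, so that its log2 differed by 2.23. With copies added it was 25.6 and 37.0 in PD100 and 142 and 143 in PD800. The ratio of *Hmgb1* to *Hmgb2* was 3.14 and 4.28 against 5.56 and 6.21, a log2 difference of 0.68. The ratio of *Hmgn2* to *Hmgn3* overlapped, with 12.9 and 19.8 in PD100 and 16.2 and 15.1 in PD800.

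RSEM's gene length, the mean length of a gene's transcripts weighted by their estimated abundance, is a readout of the transcript mix that the count test did not use. It did not overlap between the groups for 4 of the 8 genes with more than 1 transcript (*Hmgn5* has 1), and for 34.6% of the 13295 such genes among those tested. *Hmgn3*, which has 9 annotated transcripts, went from 926 and 929 bases in PD100 to 986 and 978 bases in PD800. *Hmgn2* went from 1141 and 1046 to 1148 and 1154 bases, and *Hmgn1* and *Hmga2* shifted by 9.73 and -10.3 bases. On the log2(TPM + 1) scale the median of all tested genes was -0.12. For each of the 9 genes the ratio of the PD800 mean to the PD100 mean was lower in TPM than in CPM. The PD800 to PD100 ratio of *Hmgn2* was 1.26 in TPM and 1.58 in CPM, and that of *Hmgn3* was 1.29 in TPM and 1.64 in CPM. For *Hmgb2* the estimated length was 1348 and 1843 bases in PD100 against 1437 and 1629 bases in PD800, so that its 75.1 and 58.1 TPM in PD100 ran in the opposite order to its 114 and 140 CPM.

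High mobility group genes have many processed copies in the mouse genome, and reads of such copies are hard to place. A look-alike gene was defined as one with a transcript at least 90% identical over at least 50% of its own length or of the transcript of the high mobility group gene. *Hmgb1* had 102 such genes, all annotated as pseudogenes, and *Hmgn2* had 19, *Hmgb3* 11, *Hmgb2* 10, *Hmgn1* 5, *Hmgn5* 2, *Hmga1* and *Hmga2* 1 each, and *Hmgn3* none. Windows of read length in the gene's transcript were compared with every transcript of another gene that the sequence search matched. Those transcripts did not have to meet the look-alike rule. The share of windows found there letter for letter was 59.7% for *Hmga1*, 32.9% for *Hmgb1*, 19.98% for *Hmgb2*, 18.1% for *Hmgb3* and 13.2% for *Hmgn5*. It was 10.2% for *Hmgn2*, 2.41% for *Hmgn1*, 1.11% for *Hmga2* and 0% for *Hmgn3*. The largest changes, those of *Hmgn1* and *Hmga2*, were thus in genes with few such windows.

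The only look-alike gene of *Hmga1* is *Hmga1b* (chromosome 11, 120762794 to 120764419), annotated as protein-coding. Over 1538 aligned bases the pair differ at 3, all in the 3′ UTR, and the coding sequence of *Hmga1b*, 324 bases long, is identical to that of 5 annotated *Hmga1* transcripts. The 3 places are shown since reads that miss them cannot be told apart within the aligned bases. Each line is 30 bases, 5′ to 3′, with the differing base in capitals (GRCm38, plus strand). Site a lies at chr17:27562714-27562743 and chr11:120763435-120763464, site b at chr17:27562841-27562870 and chr11:120763562-120763591, and site c at chr17:27563303-27563332 and chr11:120764024-120764053.
Hmga1, site a: tttagccgcagcccgAcctgctgcgcacct
Hmga1b, site a: tttagccgcagcccgGcctgctgcgcacct
Hmga1, site b: gccttaaggggccccAgccccatctcactc
Hmga1b, site b: gccttaaggggccccGgccccatctcactc
Hmga1, site c: cggttgtgttgttttGtttttgttccatgt
Hmga1b, site c: cggttgtgttgttttTtttttgttccatgt

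RSEM assigned *Hmga1b* expected counts of 7184 and 4462 in PD100 and of 5307 and 4680 in PD800, beside 7084 and 7519 and then 6060 and 5600 for *Hmga1*. The look-alike gene thus held 50.4% and 37.2% of the pair's counts in PD100 and then 46.7% and 45.5% in PD800. The PD100 libraries spread wider in this split than the PD800 libraries, which lay between them. Summed over the pair, the log2 fold change was -0.16 ± 0.07, with an edgeR adjusted p of 0.126.

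The pseudogenes of *Hmgb1* held between 15.9% and 19.8% of the summed counts, with no separation of the groups. *Gm45315* was at 21.4, 36.4, 35.6 and 40.6 CPM and *Gm21596* at 17.8, 22.4, 24.8 and 31.3 CPM in the 4 libraries. *Gm15387* was at 13.997, 18.5, 24.0 and 28.6 CPM, *Gm8178* at 4.04, 3.54, 5.98 and 2.74 CPM, *Gm13170* at 2.38, 3.33, 5.26 and 5.66 CPM, and *Gm13155* at 0, 2.34, 5.98 and 8.59 CPM. None of these 6 passed the test. With all 102 copies added, *Hmgb1* kept its call (0.60 ± 0.10, edgeR adjusted p = 0.00545).

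The look-alike genes of *Hmgn2* held between 23.8% and 29.4% of the summed counts. *Gm10182*, identical to it over the aligned bases, was at 7.88 and 20.4 CPM in PD100 and at 18.8 and 21.4 CPM in PD800. *Gm10282*, a copy annotated as protein-coding, was at 10.2 and 10.8 CPM in PD100 and at 17.1 and 18.1 CPM in PD800 and passed the test (0.75 ± 0.09, edgeR adjusted p = 0.00142). *Gm10357* and *Gm20379* stayed at or below 1.40 CPM and did not pass.

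The look-alike genes of *Hmgb2* held between 28.7% and 36.7% of the summed counts, most of them in *Tmx3*, a gene for a thioredoxin-related protein outside the family that met the similarity rule. Summed over *Hmgb2* and all its look-alike genes, the log2 fold change was -0.07 ± 0.09 (edgeR adjusted p = 0.584), and without *Tmx3* it was -0.17 ± 0.12 (edgeR adjusted p = 0.298). The pseudogenes *Gm13237* and *Gm4739* were at 3.80 to 7.16 CPM and did not pass. For *Hmgn1* the copies held between 0.267% and 0.367%, of which *Gm7862* was at 0.817 and 1.29 CPM in PD100 and at 2.53 and 3.36 CPM in PD800 (1.49 ± 0.29, edgeR adjusted p = 0.00831). Those of *Hmgb3* held between 5.12% and 9.29%, and *Gm6104* and *Gm8850* were under 1 CPM in every library.

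**Figure D3:**
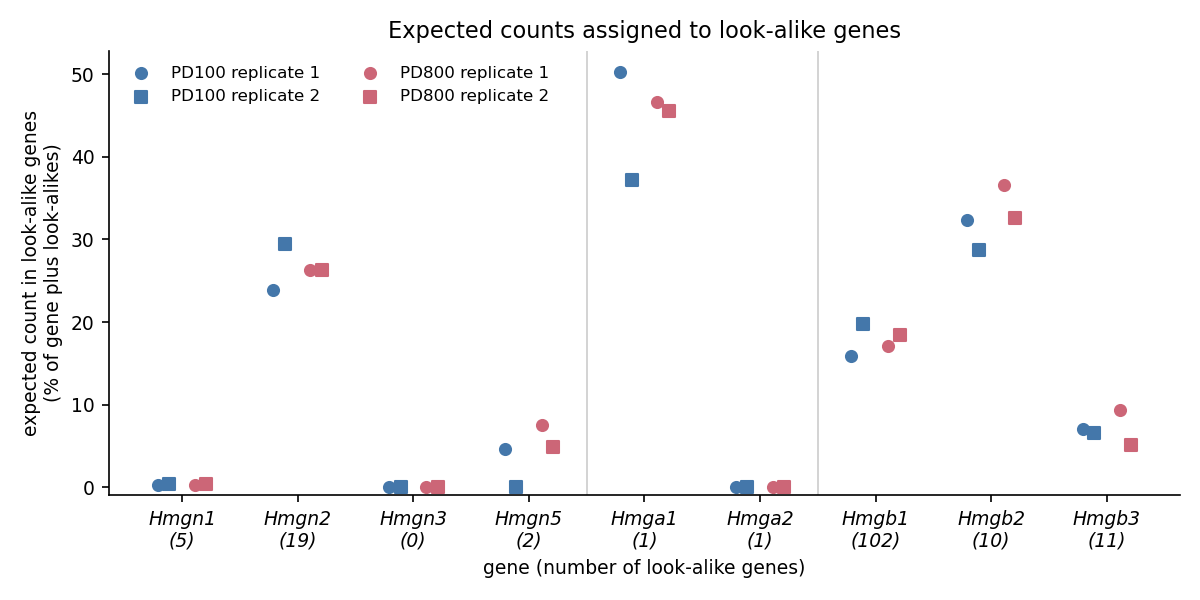
Expected count assigned to the look-alike genes of each gene, in percent of the gene and its look-alikes together, with 1 point per library (PD100 blue, PD800 red, circles replicate 1, squares replicate 2) and the number of look-alike genes in brackets. Hmga1 has the widest spread, 37.2% to 50.4% within PD100, while Hmgn1, Hmgn3 and Hmga2 lie near 0.

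The chromosomal surroundings were described because copy numbers near chromosome ends are part of the study. In a window of 5 Mb centred on *Hmgn1*, which ends 1.90 Mb from the last annotated base of chromosome 16, the median log2 fold change of the 32 other tested genes was 0.74. Of them, 17 passed as higher and 3 as lower, where 13.1% and 15.4% of all tested genes did. In a 2 Mb window the median of 9 genes was 1.67, beside 1.58 for *Hmgn1*, in a 10 Mb window that of 57 genes was 0.10, and over the 40 nearest tested genes it was 0.55. *Hmgb1* ends 2.52 Mb from the last annotated base of chromosome 5, and its 55 neighbours had a median of 0.57, beside its own 0.60, and in a 10 Mb window the median of 85 genes was 0.33. Around *Hmga2* the median of 34 genes was -0.72, and none had a log2 fold change below that of *Hmga2*. Of them, 3 passed as higher and 11 as lower, beside the same 13.1% and 15.4%. In a 10 Mb window the median of 61 genes was -0.10. Around *Hmgn5* the 12 neighbours had a median of 0.59, against -1.26 for *Hmgn5* itself, while the median of the 3 genes in a 2 Mb window was -0.14. The change had the sign of the neighbours' median for 6 of the 9 genes, for 7 with a 2 Mb window, 6 with a 10 Mb window and 4 with the 40 nearest genes. No such share was computed for all tested genes, so these counts are a description only. For *Hmgn2*, *Hmgn3*, *Hmga1*, *Hmgb2* and *Hmgb3* the 5 Mb median lay between -0.17 and 0.11. The part of the neighbourhood in the change of *Hmgn1* or *Hmgb1* was not tested.

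**Figure D4:**
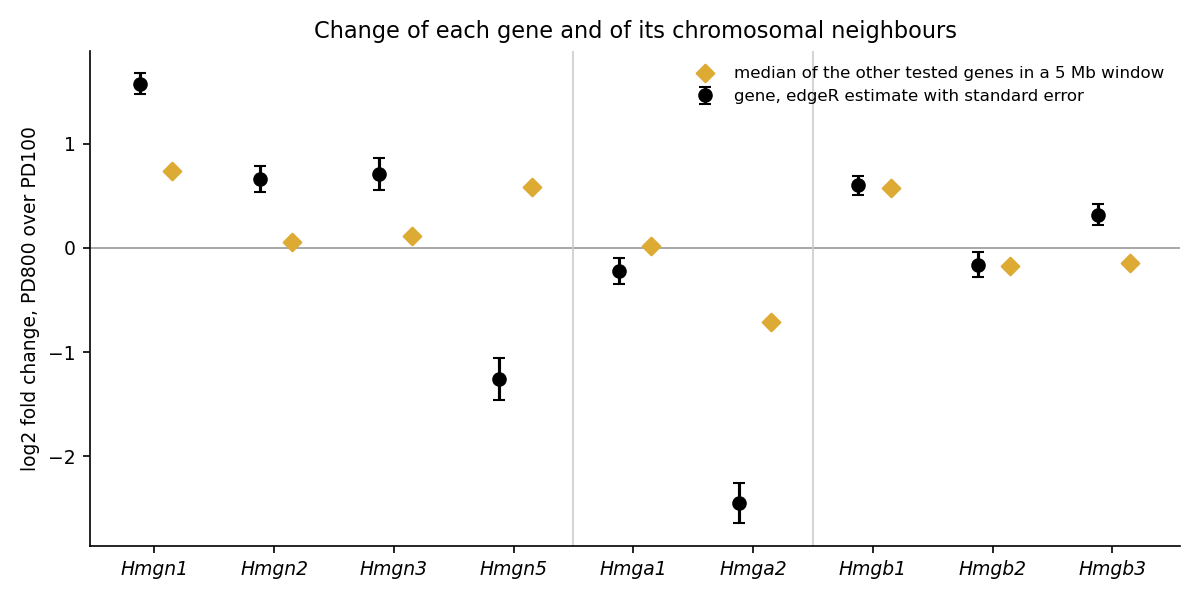
Log2 fold change from PD100 to PD800 by gene (black points, edgeR estimate with its standard error from 2 libraries a group) beside the median log2 fold change of the other tested genes within a 5 Mb window centred on it (yellow diamonds). Hmgb1 lies on its neighbours' median, Hmgn1 lies above a median of 0.74, and Hmgn5 lies below 0 where its neighbours' median is 0.59.

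*Hmga2* is the textbook target of the let-7 miRNAs, which pair with sites in its 3′ UTR, and Lin28 proteins block let-7 maturation. The mature let-7a is shown with its seed, bases 2 to 8, in capitals, which 11 mature mouse miRNAs in RefSeq's table share.
mmu-let-7a-5p: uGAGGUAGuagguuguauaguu
The seed match CTACCTC was sought on the transcript strand of the longest annotated 3′ UTR of each gene. *Hmga2* held 4 matches in 3014 bases, *Hmga1* and *Hmga1b* 1 each, and the other 7 genes none. At least 1 match was found in 10.1% of the 21173 genes with a 3′ UTR, and 4 or more in 0.0567%. Among the 2566 genes whose 3′ UTR was within 20% of the length of that of *Hmga2*, the shares were 16.6% and 0.117%. The 4 places in *Hmga2*, with the seed match in capitals, are at chr10:120364224-120364246, chr10:120362987-120363009, chr10:120362549-120362571 and chr10:120361691-120361713 (GRCm38, minus strand).
Hmga2 match at base 58 of the 3′ UTR: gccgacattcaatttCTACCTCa
Hmga2 match at base 1295: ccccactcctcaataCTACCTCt
Hmga2 match at base 1733: ctgatttgcaaggaaCTACCTCc
Hmga2 match at base 2591: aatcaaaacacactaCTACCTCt
A match is a description of the letters and says nothing of pairing in these cells, and mature miRNAs were not measured.

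Of the 11 genes of the let-7, Lin28 and Igf2bp axis, 2 rose, 2 fell and 7 did not pass, or 18.2% each way where 13.1% of all tested genes rose and 15.4% fell. Their median log2 fold change was -0.08. *Lin28b*, which blocks let-7 maturation, was at 50.7 and 50.5 CPM in PD100 and at 18.4 and 19.9 CPM in PD800 (-1.40 ± 0.08, edgeR adjusted p = 0.000113). *Igf2bp3*, an RNA-binding protein of the same embryonic set, fell from 49.6 and 48.0 CPM to 22.7 and 23.6 CPM (-1.08 ± 0.08, edgeR adjusted p = 0.000209). *Dicer1*, which cuts the miRNA from its hairpin, rose from 154 and 157 CPM to 299 and 288 CPM (0.92 ± 0.07, edgeR adjusted p = 0.000327), and *Dgcr8*, named after its values were seen, rose by 0.38 on the log2 scale. *Lin28a*, the paralog of *Lin28b*, was at 189 and 203 CPM against 150 and 158 CPM (-0.35 ± 0.08, edgeR adjusted p = 0.0143) and did not pass, nor did *Igf2bp1* (-0.40 ± 0.09, edgeR adjusted p = 0.0118).

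Linker histones compete with HMGN and HMGB proteins for nucleosomal DNA. Of 10 listed, 8 were tested, 1 rose, 1 fell and 6 did not pass, or 12.5% each way, which is close to the 13.1% and 15.4% of all tested genes. *H1f0*, the replacement linker histone of slowly dividing cells, rose from 35.8 and 32.2 CPM to 76.6 and 76.5 CPM (1.17 ± 0.08, edgeR adjusted p = 0.000228). *Hist1h1t*, the testis form, fell from 5.10 and 7.01 CPM to 1.67 and 1.81 CPM (-1.80 ± 0.21, edgeR adjusted p = 0.00126). *Hist1h1c* was at 285 and 443 CPM in PD100 and at 366 and 416 CPM in PD800, and *Hist1h1a* at 489 and 872 CPM against 412 and 514 CPM (0.10 ± 0.20, edgeR adjusted p = 0.713, and -0.56 ± 0.27, edgeR adjusted p = 0.144). In both genes PD100 replicate 2 was the highest library. *H1fx* was at 3.49 and 4.94 CPM against 6.70 and 7.50 CPM (0.76 ± 0.19, edgeR adjusted p = 0.0221).

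Of 20 other genes with an HMG box, 17 were tested, none rose and 4 fell (23.5%, where 15.4% of all tested genes were lower), with a median log2 fold change of -0.16. *Hmgxb4* fell from 151 and 127 CPM to 69.4 and 70.7 CPM (-0.99 ± 0.10, edgeR adjusted p = 0.000722), and *Tfam*, which packs mitochondrial DNA, fell from 55.9 and 66.7 CPM to 35.6 and 40.3 CPM (-0.69 ± 0.12, edgeR adjusted p = 0.00465). The other 2, named after their values were seen, were *Pbrm1*, a subunit of the PBAF remodeller (-0.58), and *Bbx* (-0.49). *Sox2*, a pluripotency factor, was at 153 and 118 CPM against 212 and 208 CPM (0.63 ± 0.13, edgeR adjusted p = 0.0102), *Lef1*, a Wnt effector, was at 3.32 and 2.73 CPM against 1.70 and 1.34 CPM (-0.99 ± 0.22, edgeR adjusted p = 0.0141), and *Ssrp1*, the HMG-box subunit of the histone chaperone FACT, had a log2 fold change of -0.13 ± 0.07 (edgeR adjusted p = 0.201).

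In the SET complex, which holds HMGB2, 1 of 5 genes rose and 1 fell, beside 13.1% and 15.4% of all tested genes. *Anp32a* rose from 55.7 and 68.5 CPM to 129 and 144 CPM (1.14 ± 0.12, edgeR adjusted p = 0.000859), and the nuclease *Nme1* fell from 143 and 182 CPM to 99.2 and 106 CPM (-0.66 ± 0.13, edgeR adjusted p = 0.00772). *Set* itself had a log2 fold change of -0.04 ± 0.09 (edgeR adjusted p = 0.766), *Trex1* of -0.64 ± 0.15 (edgeR adjusted p = 0.0158) and *Apex1* of -0.29 ± 0.13 (edgeR adjusted p = 0.125).

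Of 12 receptors, modifiers and partners of HMGB1, 10 were tested, 1 rose and 2 fell, also beside 13.1% and 15.4%. The acetyltransferase gene *Kat2b* rose from 55.8 and 48.6 CPM to 90.2 and 87.5 CPM (0.77 ± 0.09, edgeR adjusted p = 0.00130). The receptor gene *Tlr2* fell from 3.29 and 3.06 CPM to 1.28 and 1.15 CPM (-1.38 ± 0.20, edgeR adjusted p = 0.00247), and the deacetylase gene *Sirt1* fell from 84.2 and 83.0 CPM to 53.2 and 53.9 CPM (-0.64 ± 0.07, edgeR adjusted p = 0.000937). *Hdac4* did not pass (-0.26 ± 0.08, edgeR adjusted p = 0.0443). Over the 5 lists together, 5 of 51 tested genes were higher and 10 were lower, where 13.1% and 15.4% of all tested genes were. Without PD100 replicate 1, 8 were higher and 19 lower, and without PD100 replicate 2, 10 and 18. Without PD800 replicate 1, 3 were higher and 4 lower, and without PD800 replicate 2, 4 were lower.

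The genes whose pattern over the 4 libraries was most like that of 3 of the genes were found by the distance between centred log2 CPM values. Nearest to *Hmgn1*, among 1645 genes that averaged 100 CPM or more, were *Vrk1* (51.5, 61.5, 157 and 160.2 CPM), *Alyref* (168, 185, 485 and 534 CPM) and *Pgk1* (501, 586, 1675 and 1793 CPM), at distances of 0.09, 0.10 and 0.11. Nearest to *Hmga2*, among 8948 genes that averaged 10 CPM or more, were *Wnt7b* (23.8, 19.1, 3.89 and 4.20 CPM), *Oasl2* (32.1, 26.7, 5.70 and 5.38 CPM) and *Podxl* (101.2, 81.6, 17.8 and 18.9 CPM), at distances of 0.17, 0.20 and 0.21. Nearest to *Hmgb2*, among the same 1645 genes, were *Nop53*, *Hnrnpab* and *Gtpbp4*, at distances of 0.01, 0.02 and 0.03, all highest in PD100 replicate 2. These distances are over 4 libraries and describe likeness of pattern.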

How the data were processed

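Paired-end reads from 4 libraries were aligned by the authors to mm10 with STAR 2.5.3a, and RSEM 1.3.0 gave the deposited expected count (estimated count per gene, in which reads that fit several genes are divided), which is not scaled for depth. Deposited beside it by the authors were TPM values, scaled by RSEM for length and to a common total, and RSEM's transcript lengths. The labels name total RNA and the study's text mRNA, and the annotation release is not given in the sources used here. Of 53379 gene identifiers, 53274 were found without their version number in GENCODE M21 (GRCm38, also called mm10), which gave coordinates and transcripts. FPKM values were not used.

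The doubling number in the titles set the group of each library. The 9 genes and the gene lists were chosen with earlier results of these data known. Expected counts were rounded and analysed with R 4.3.3 and edgeR 4.0.16, with TMM factors, a filterByExpr minimum of 10 counts, the quasi-likelihood test of PD800 against PD100 and Benjamini-Hochberg adjustment over 19148 genes. The procedure was tested on simulated data drawn for this comparison, at 18715 genes. Of these, 99 were changed by 1 and 98 by 2 on the log2 scale, and 59.6% and 91.8% of them passed, with 1 false call. The simulated spread followed the fitted trend without differences of its own for each gene. Far fewer genes were changed than the 28.5% that passed in the data, so the figures hold for the simulated setting only. The total expected count was between 32454121 and 38492149 per library. Look-alike genes were found with blastn 2.17.0.

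All 9 genes are named. In each context list the named genes are up to 4 with the largest absolute log2 fold change at a mean of at least 1 CPM, plus *Lin28a*, *Hist1h1c*, *Ssrp1* and *Set*, in the marker lists *Pou5f1*, *Col1a1* and *Sox17* (*Lum*, *Fn1* and *Vim* were named after their values were seen), and of look-alike genes up to 6 per gene with a mean expected count of at least 10. The 3 genes of most similar pattern are given for *Hmgn1*, *Hmga2* and *Hmgb2*. The alternatives were DESeq2 1.42.0, its size factors in edgeR, upper-quartile factors, protein-coding nuclear genes alone, the replicate block, no filter, a minimum of 10 counts in all libraries, limma 3.58.1 on log2(TPM + 1) and log2(TPM + 0.1), counts summed with look-alike genes, other thresholds, other windows and each library left out. The sum without *Tmx3* was added after the data were seen.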

Additional observations from a re-analysis of the deposited data

How the results depend on the processing

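The simulation covered log2 changes of 1 and 2 only. How often changes as small as that of *Hmgb3* are found with 2 libraries a group was not measured. The split of reads between *Hmga1* and *Hmga1b* or between *Hmgb1* and its pseudogenes is RSEM's estimate. No estimate of a high mobility group gene changed sign under any alternative run. *Hmgn1* and *Hmga2* passed the test under all of the refits. Where another call changed, the cause was not tested.

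The count of high mobility group genes that were higher, 3, became 1 with limma at either pseudocount (TPM + 1, TPM + 0.1), 5 at an adjusted p under 0.05, 1 with a fold change over 2, and 1 to 5 when 1 library was left out. The count that were lower, 2, became 1 with limma on log2(TPM + 0.1) and 1 to 4 with 1 library left out. The context genes higher, 5, became 1 with limma at both pseudocounts, 9 at an adjusted p under 0.05, 2 with a fold change over 2, and 3 to 10 with 1 library left out. The context genes lower, 10, became 18 with no expression filter, 19 at an adjusted p under 0.05, 4 with a fold change over 2, and 4 to 19 with 1 library left out.

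With limma, the median of all tested genes was -0.12 on log2(TPM + 1) and -0.21 on log2(TPM + 0.1). *Hmgn2* did not pass there (0.34 and 0.35), nor did *Hmgb1* (0.33 and 0.34), and *Hmgn5* did not pass with the smaller pseudocount (-1.33). *Hmgn3* (0.30 and 0.37) and *Hmgb3* (0.02 and 0.02) were smaller there than the 0.71 and 0.32 of edgeR. The count of genes with the sign of their neighbours' median, 6, was 7 in a 2 Mb window, 6 in a 10 Mb window and 4 with the 40 nearest genes. *Hmgn2* had 0.65 with look-alike genes summed, with or without *Tmx3*. *Hmgn3* passed with protein-coding nuclear genes (0.73) and with no filter (0.71). With TPM summed over look-alike genes, the change in the HMGN share was 16.1 percentage points for *Hmgn1*, -15.3 for *Hmgn2* and -0.401 for *Hmgn5*, beside 12.9, -11.6 and -0.570.

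With 1 library left out, the estimates ranged from 0.51 to 0.81 for *Hmgn2*, 0.61 to 0.82 for *Hmgn3*, -1.38 to -1.15 for *Hmgn5*, -0.39 to -0.057 for *Hmga1*, 0.53 to 0.66 for *Hmgb1*, -0.30 to -0.030 for *Hmgb2* and 0.23 to 0.39 for *Hmgb3*. A lone library was then assumed to vary like the other group.

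Replicate numbers are shared between the groups, but no label gives same-numbered libraries a common origin, and their deviations correlated at 0.230. With the replicate block, *Hmgn3* passed (0.71), the context genes lower became 17 and those higher 7, the high mobility group genes higher became 4, and no other call of the 9 genes changed.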

Other observations

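*Hmga1b*, the near-identical copy of *Hmga1*, ends 1.21 Mb from the last annotated base of chromosome 11. In a window of 5 Mb centred on it, the median log2 fold change of the 97 other tested genes was 1.39. Of them, 63 passed as higher in PD800 and 5 as lower, where 13.1% and 15.4% of all tested genes did. *Hmga1b* itself was at 178 and 134 CPM in PD100 and at 148 and 146 CPM in PD800, a log2 fold change of -0.09 ± 0.14 (edgeR adjusted p = 0.640), and 1.48 below the median of its neighbours. In a 10 Mb window the neighbours' median was 0.64, and *Hmga1b* lay 0.73 below it. In the same fit *Hmga1*, far from the end of chromosome 17, had a neighbours' median of 0.02. The counts of *Hmga1b* are RSEM's split of reads with *Hmga1*, from which it differs at 3 of 1538 aligned bases. *Hmga1b* was given 50.4% and 37.2% of the pair's counts in the PD100 libraries. Its own level, and so its distance from its neighbours, rests on that split and cannot be settled here.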
